A study of Mus musculus with 22 samples.

Results

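The genes described here are Nfe2l2, which encodes the transcription factor NRF2, and 9 genes that NRF2 is known to induce: Nqo1, Slc7a11, Txnrd1, Gclc, Gclm, Hmox1, Srxn1, Akr1b8 and Gpx2. They were taken as a named list of known genes, and the 10 stand among 22911 genes with a symbol on the array. Each was found through its RefSeq accession, on 12 probes in all, and the probe used for every one of the 10 genes was well above background on all 22 arrays, so none was lost to the filter on dim probes.

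Total RNA of mouse bladders was hybridised as 22 samples, 1 per array, to 1-colour Agilent expression arrays. Mice were 8 months old. In 7 groups (19 arrays) the animals had drunk BBN, a nitrosamine that causes bladder cancer in rodents, for 24 weeks, and their tissue was labelled as bladder tumor. Of these groups, 4 carried a Trp53 point mutation together with a tamoxifen-inducible Cre and the LSL-RFP reporter, and had received tamoxifen: Krt5-Cre R270H (Krt5-CreERT2; LSL-RFP; Trp53R270H/+; 3 arrays), Krt5-Cre R172H (Krt5-CreERT2; LSL-RFP; Trp53R172H/+; 4), Upk2-Cre R270H (Upk2-CreERT2; LSL-RFP; Trp53R270H/+; 2) and Upk2-Cre R172H (Upk2-CreERT2; LSL-RFP; Trp53R172H/+; 3). The Krt5 driver acts in basal cells and the Upk2 driver in luminal cells of the urothelium, the epithelium that lines the bladder, so an activated allele is limited to the cells where the driver worked. The Trp53 het group (3 arrays) had the genotype Trp53R270H/+ without Cre and without tamoxifen, and its titles call it Trp53+/-. The Krt5-Cre (Krt5-CreERT2; LSL-RFP; 2 arrays) and Upk2-Cre (Upk2-CreERT2; LSL-RFP; 2) groups had BBN and tamoxifen and no Trp53 mutation. The normal group (3 arrays) was wild type, with neither tamoxifen nor BBN. Its tissue was labelled as normal urothelium, although RNA of all samples came, per the labels' protocols, from the entire bladder.

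NRF2 is held at a low level in resting cells by KEAP1, an adaptor that, with the ligase scaffold CUL3, marks it for degradation. Oxidants and electrophiles disable KEAP1, and NRF2 then pairs with small MAF proteins on the antioxidant response element of its target genes, which make and recycle glutathione and thioredoxin and detoxify quinones and aldehydes. Because NRF2 is controlled largely through protein stability, the Nfe2l2 transcript is not a measure of NRF2 activity.

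The antioxidant response element core was searched, because it is the sequence through which the factor is known to act, as TGACNNNGC on both strands of RefSeq promoter windows (GRCm38.p6) that run from 250 bases before to 50 bases after a start site. Of 32851 windows of 300 bases, 12.4% held a match. Windows were found for 8 of the 10 genes, 10 windows in all. Of these, 4 windows held 1 match each, and they are shown 5′ to 3′ on the strand of the gene, in lower case with the match in capitals. The Nfe2l2 window lies at chr2:75704614-75704913 on the minus strand, the Srxn1 window at chr2:152105274-152105573 on the plus strand, the Gclm window at chr3:122245307-122245606 on the plus strand and 1 of the 3 Txnrd1 windows at chr10:82858956-82859255 on the plus strand. The match reads on the gene's strand in Nfe2l2 and on the opposite strand in Srxn1, Gclm and Txnrd1. A match is a description of letters and not of a bound site, and the windows of Slc7a11, Akr1b8, Nqo1 and Gpx2 held none.
Nfe2l2 promoter: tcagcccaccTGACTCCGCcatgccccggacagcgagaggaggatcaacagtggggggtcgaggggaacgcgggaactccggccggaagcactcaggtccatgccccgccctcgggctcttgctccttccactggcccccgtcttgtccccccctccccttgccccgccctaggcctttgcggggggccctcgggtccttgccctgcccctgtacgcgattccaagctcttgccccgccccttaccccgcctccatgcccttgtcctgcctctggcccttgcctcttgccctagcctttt
Srxn1 promoter: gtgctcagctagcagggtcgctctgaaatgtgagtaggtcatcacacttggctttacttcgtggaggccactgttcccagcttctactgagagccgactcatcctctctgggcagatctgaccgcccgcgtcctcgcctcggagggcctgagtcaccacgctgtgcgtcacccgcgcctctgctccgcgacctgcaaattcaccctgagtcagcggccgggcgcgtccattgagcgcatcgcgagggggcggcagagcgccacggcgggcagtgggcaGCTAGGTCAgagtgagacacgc
Gclm promoter: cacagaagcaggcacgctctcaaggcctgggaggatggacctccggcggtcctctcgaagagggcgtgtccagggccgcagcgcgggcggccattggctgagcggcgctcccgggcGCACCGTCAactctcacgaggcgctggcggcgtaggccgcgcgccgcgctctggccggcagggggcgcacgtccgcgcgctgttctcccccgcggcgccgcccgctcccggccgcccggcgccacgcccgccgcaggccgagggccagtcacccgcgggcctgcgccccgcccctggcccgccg
Txnrd1 promoter: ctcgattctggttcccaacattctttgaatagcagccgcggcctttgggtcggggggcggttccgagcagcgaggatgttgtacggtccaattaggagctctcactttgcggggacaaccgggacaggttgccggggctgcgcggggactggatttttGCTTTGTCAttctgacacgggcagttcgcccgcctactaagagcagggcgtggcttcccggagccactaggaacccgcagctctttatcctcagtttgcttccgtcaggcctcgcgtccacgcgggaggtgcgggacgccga

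Levels are log2 of the processed spot signal minus the 75th percentile of the same array, so a level of 0 is as bright as the 75th percentile, and a difference of 1 between groups is a doubling. Levels of different genes come from different probes and were not compared with each other. Between 42.4% and 63.2% of spots were well above background per array, and 0 spots were saturated. The arrays had been read on 2 scanner models, G2505C (11 BBN arrays, all R270H arrays among them) and G2600D (8 BBN arrays and the 3 normal arrays), and the normal arrays had a slide of their own. Slide and BBN therefore cannot be told apart. Values from the G2600D arrays alone are given beside the results. They hold the scanner model constant but still compare different slides. They also average fewer BBN groups, because no R270H array was read on G2600D. On 11 of the 22 arrays, 8 BBN and all 3 normal ones, Xist and Y-linked transcripts did not match the labelled sex. All 3 normal arrays were labelled female but had 4 Y-linked genes and no Xist well above background, while the BBN arrays were mixed. A part of sex by transcript in BBN minus normal was not tested. Called results are also given without those 8 BBN arrays, which leaves out the whole Krt5-Cre R172H group and keeps the normal arrays. A code in the descriptions is shared by Upk2-Cre replicates 1 and 2, and another by Trp53 het replicates 1 and 2. By the codes these may not be separate animals, and averaging them changed no call. Upk2-Cre replicate 1, however, had Xist and 0 Y-linked genes well above background, and replicate 2 had 4 Y-linked genes and no Xist. Those 2 arrays thus differed in sex by transcript, as 1 animal would not. Apart from the codes, nothing says how the samples of a group were raised, so the p-values measure the spread between these samples. Trp53 itself, which bears point mutations that an expression probe does not report, ranged from -1.63 to 1.62 over the BBN arrays, against -1.23 to -1.05 in normal.

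BBN bladders were first set against normal bladders, the mean of the 7 BBN group means against the mean of 3 normal arrays, which asks how the pathway stood after the carcinogen. By limma with Benjamini-Hochberg adjustment over 17404 genes, 4 of the 10 genes changed, where 42.7% of all genes tested were called. The selenium-dependent glutathione peroxidase Gpx2 and the cystine carrier Slc7a11 were higher in BBN bladders (2 of 10, against 23.7% of all genes called higher). Nfe2l2 and the quinone reductase Nqo1 were lower (2 of 10, against 19% of all genes called lower). Their share was thus close to that of all genes. The median difference of the 10 genes was 0.34, against 0.13 over all genes tested.

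**Figure D1:**
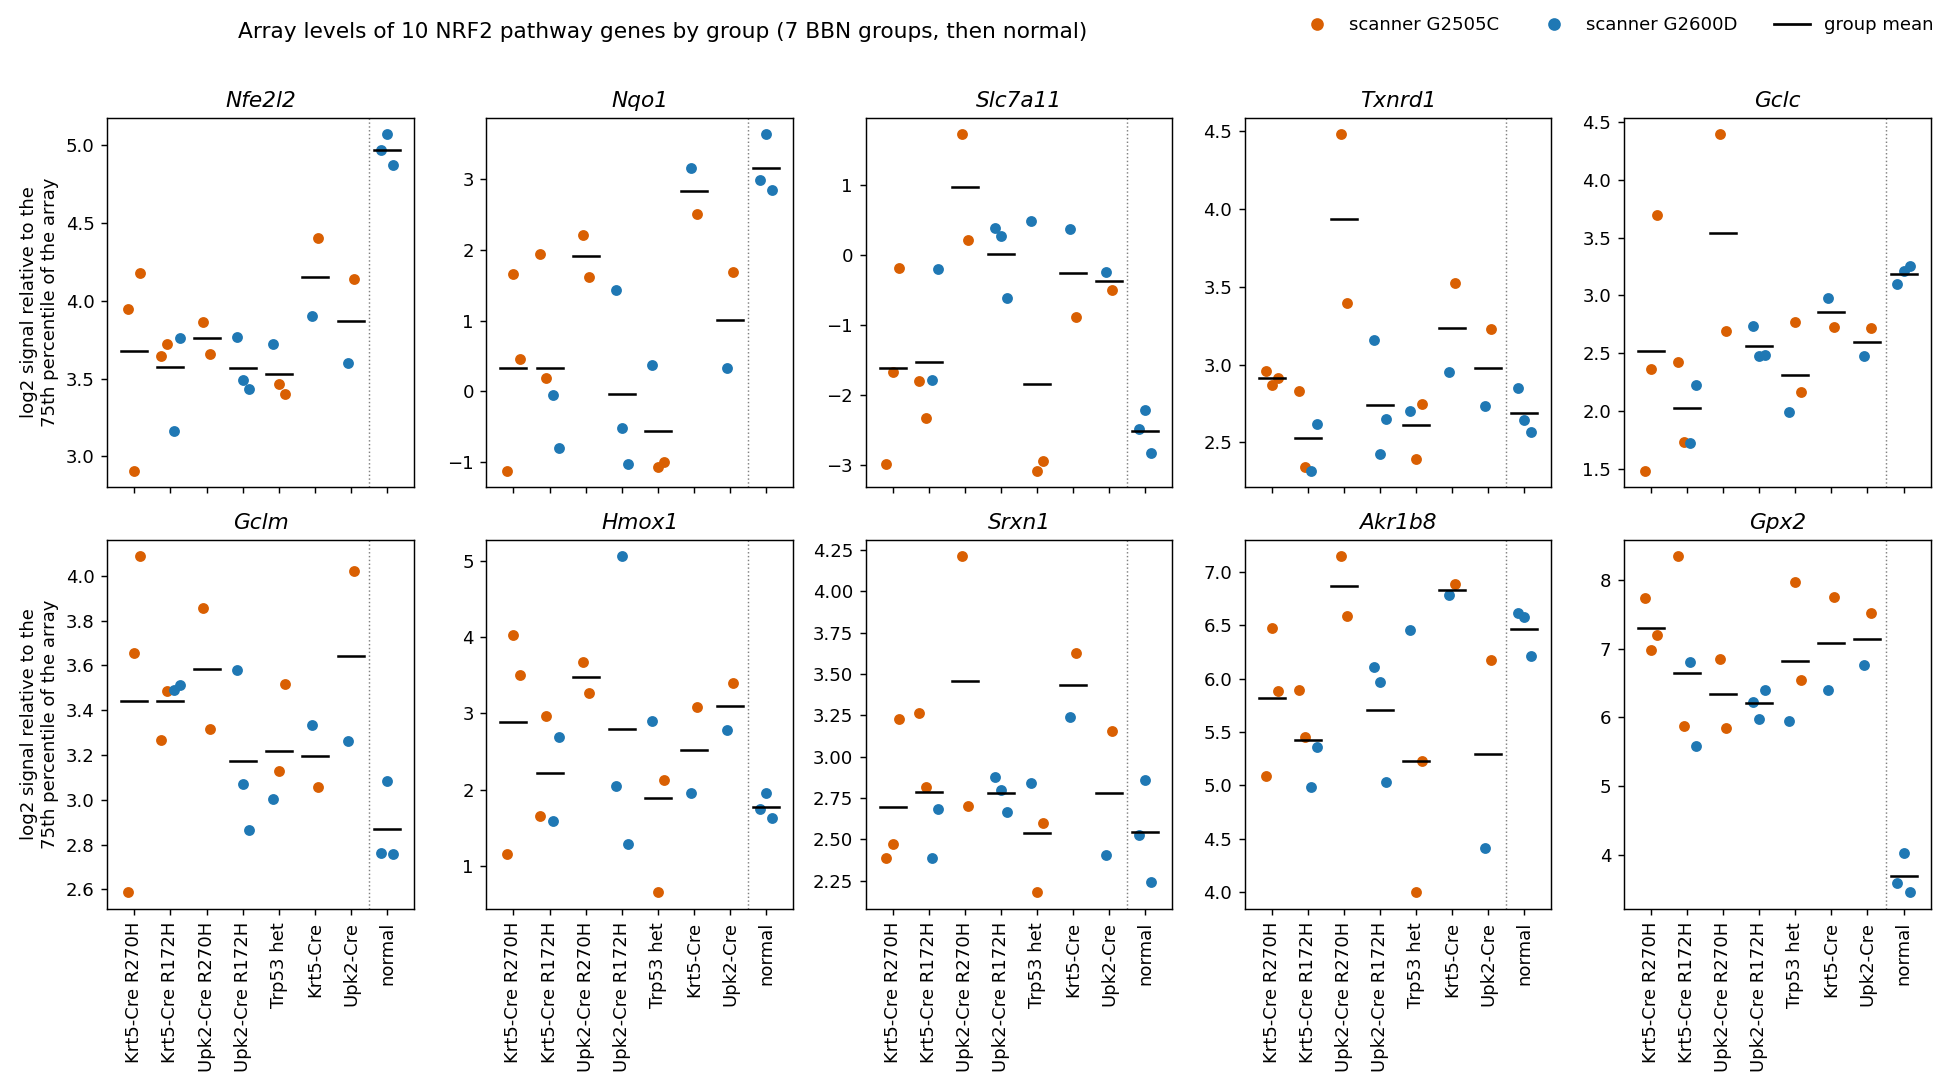
Level of each gene (vertical axis, log2 signal relative to the array's 75th percentile) on every array, by group (horizontal axis, 7 BBN groups and then normal), with 1 point per array coloured by scanner model and a bar for the group mean. In Nfe2l2 all 19 BBN points lie below the 3 normal points, and in Gpx2 all 19 lie above them.

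Nfe2l2 had a level of 3.94, 2.91 and 4.18 in Krt5-Cre R270H, 3.64, 3.72, 3.17 and 3.76 in Krt5-Cre R172H, 3.87 and 3.66 in Upk2-Cre R270H, 3.77, 3.49 and 3.44 in Upk2-Cre R172H, 3.72, 3.46 and 3.40 in Trp53 het, 3.90 and 4.41 in Krt5-Cre and 4.14 and 3.60 in Upk2-Cre, against 4.97, 5.07 and 4.87 in normal. Every BBN array lay below every normal array, as in 12% of all genes tested. The log2 difference was -1.24 (95% interval -1.72 to -0.76, limma adjusted p = 0.00046), which is 2.36-fold lower in BBN bladders. Among the BBN groups the means ran from 3.53 ± 0.17 in Trp53 het (SD, n = 3) to 4.15 ± 0.36 in Krt5-Cre (SD, n = 2), and the ranges of neighbouring groups in this order overlapped. On the G2600D arrays alone the difference was -1.32 (adjusted p = 0.0010), and without the 8 BBN arrays against their sex label it was -1.27 (adjusted p = 0.0089).

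Nqo1 encodes a cytosolic reductase that turns quinones into hydroquinones and is a common readout of NRF2. Its level was -1.12, 1.66 and 0.45 in Krt5-Cre R270H, 1.95, 0.19, -0.05 and -0.80 in Krt5-Cre R172H, 2.21 and 1.62 in Upk2-Cre R270H, 1.43, -0.53 and -1.02 in Upk2-Cre R172H, 0.37, -1.07 and -1.01 in Trp53 het, 3.16 and 2.51 in Krt5-Cre and 0.33 and 1.69 in Upk2-Cre, against 2.99, 3.63 and 2.85 in normal. Of the 19 BBN arrays, 18 were below all 3 normal arrays, and the exception was Krt5-Cre replicate 1. The log2 difference was -2.33 (95% interval -3.57 to -1.08, limma adjusted p = 0.0049), or 5.02-fold lower in BBN bladders, and -2.48 both on the G2600D arrays alone (adjusted p = 0.0076) and without the 8 BBN arrays against their sex label (adjusted p = 0.0062). The BBN arrays spread over 4.28 log2 units in this gene, against 0.79 in normal. Krt5-Cre had the highest mean of the BBN groups (2.83 ± 0.46, SD, n = 2), and its lower array was above both arrays of Upk2-Cre R270H, the next group in order (1.91 ± 0.42, SD, n = 2).

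Gpx2, the form of glutathione peroxidase found mainly in epithelia, had the largest difference of the 10 genes. Its level was 7.74, 6.97 and 7.20 in Krt5-Cre R270H, 8.34, 5.87, 6.80 and 5.59 in Krt5-Cre R172H, 6.85 and 5.84 in Upk2-Cre R270H, 6.23, 5.98 and 6.40 in Upk2-Cre R172H, 5.95, 7.97 and 6.55 in Trp53 het, 6.40 and 7.75 in Krt5-Cre and 6.76 and 7.52 in Upk2-Cre, against 3.58, 4.02 and 3.45 in normal. All 19 BBN arrays lay above all 3 normal arrays, as in 13.6% of all genes tested. The log2 difference was 3.11 (95% interval 2.10 to 4.11, limma adjusted p = 0.00010), or 8.61-fold higher in BBN bladders, with 2.62 on the G2600D arrays alone (adjusted p = 0.00045) and 3.12 without the 8 BBN arrays against their sex label (adjusted p = 0.00082). Group means among BBN bladders ran from 6.20 ± 0.21 in Upk2-Cre R172H to 7.30 ± 0.39 in Krt5-Cre R270H (SD, n = 3 each). The smallest of these means was still 2.52 above that of normal, and no BBN group overlapped it.

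Slc7a11 is the transport subunit of the cystine/glutamate exchanger that feeds glutathione synthesis. Its level was -2.98, -1.67 and -0.18 in Krt5-Cre R270H, -1.80, -2.33, -1.79 and -0.20 in Krt5-Cre R172H, 1.72 and 0.21 in Upk2-Cre R270H, 0.39, 0.26 and -0.61 in Upk2-Cre R172H, 0.48, -3.08 and -2.95 in Trp53 het, 0.37 and -0.88 in Krt5-Cre and -0.24 and -0.50 in Upk2-Cre, against -2.49, -2.21 and -2.82 in normal. In 15 of the 19 BBN arrays it was above all normal arrays and in 3 it was below them, 2 of Trp53 het and 1 of Krt5-Cre R270H. The log2 difference was 1.84 (95% interval 0.48 to 3.21, limma adjusted p = 0.030), or 3.59-fold higher in BBN bladders. The call did not hold with the slide as a random block (1.82, adjusted p = 0.073), without the 8 BBN arrays against their sex label (2.00, adjusted p = 0.067) or without any one of the 3 normal arrays (1.69 to 1.99, adjusted p = 0.069 to 0.12). On the G2600D arrays alone it was 2.43 (adjusted p = 0.0022). On 5 BBN arrays (Trp53 het 2 and 3, Krt5-Cre R270H 1, Krt5-Cre R172H 1 and 2) the level stood less than 1 log2 unit above the lowest signal well above background on that array, by 0.08 in Trp53 het replicate 2, so low Slc7a11 values on the dimmer G2505C arrays, and differences that rest on them, are limited by dim signal. A second Slc7a11 probe, well above background on 19 arrays, gave 1.58 (adjusted p = 0.059 over all probes tested).

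**Figure D2:**
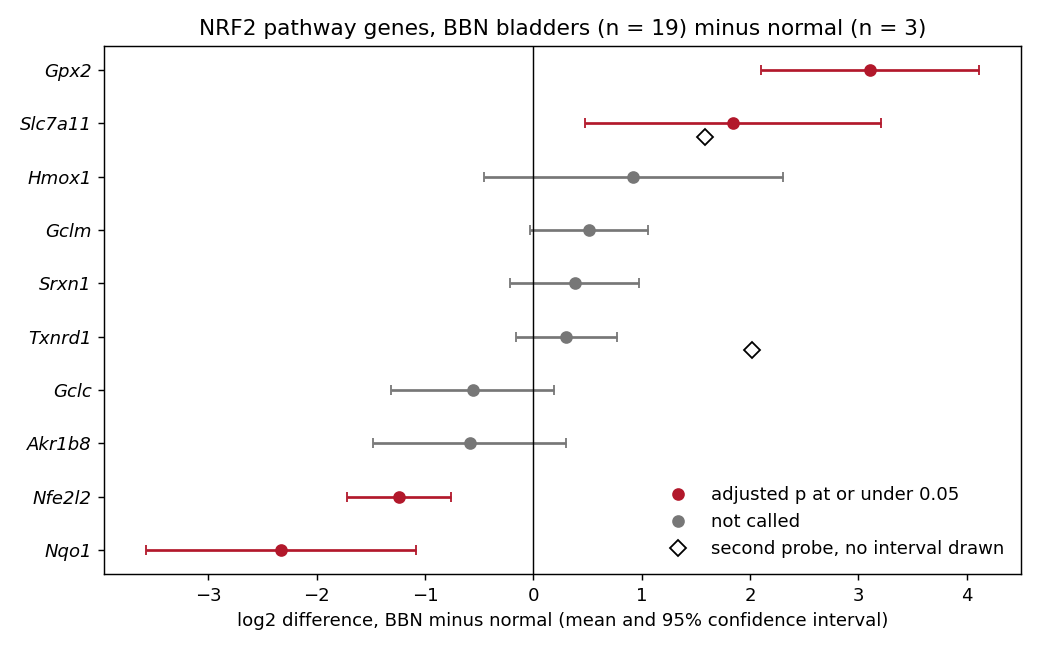
Log2 difference of each gene, BBN bladders (19 arrays in 7 groups) minus normal (3 arrays), as mean and 95% confidence interval on the horizontal axis; red marks an adjusted p at or under 0.05 and open diamonds a second probe of the same gene. Gpx2 and Slc7a11 stand above 0, Nfe2l2 and Nqo1 below it, and the 2 Txnrd1 probes stand apart at 0.30 and 2.02.

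The other 6 genes did not pass the test. Txnrd1, the cytosolic thioredoxin reductase, gave 2 answers. On the probe used, its level was lowest at 2.32, with a median of 2.83 and a highest value of 4.48 in BBN bladders, against 2.85, 2.65 and 2.57 in normal. Those ranges overlapped, and the log2 difference was 0.30 (95% interval -0.16 to 0.77, limma adjusted p = 0.27). On the other probe, which carries the same transcript accession, the level had a lowest value of 0.93, a median of 1.94 and a highest value of 3.57 in BBN bladders, against 0.04, -0.07 and 0.09 in normal. Here every BBN array was above every normal array, with a difference of 2.02 (limma adjusted p = 7.3e-05 over all probes tested). Among all genes tested, each on the probe used, 13.6% had every BBN array above every normal array. With the mean of both probes the gene was called, at 1.16 (adjusted p = 0.0014).

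Glutamate-cysteine ligase makes the rate-limiting step of glutathione synthesis from a catalytic subunit, Gclc, and a modifier subunit, Gclm. Gclc had a lowest level of 1.48, a median of 2.48 and a highest level of 4.40 in BBN bladders, against 3.10, 3.21 and 3.26 in normal. In 17 of 19 BBN arrays it was below all normal arrays and in the other 2 (Upk2-Cre R270H replicate 1 and Krt5-Cre R270H replicate 3) above them. Its difference was -0.56 (95% interval -1.31 to 0.19, limma adjusted p = 0.21). On the G2600D arrays alone it was -0.79, but that setting holds no R270H array and so leaves out the 2 arrays above normal. Gclm had a lowest level of 2.59, a median of 3.33 and a highest level of 4.09 in BBN bladders, against 2.76, 3.09 and 2.76 in normal. In 14 of 19 BBN arrays it was above all normal arrays, with a difference of 0.52 (95% interval -0.03 to 1.06, limma adjusted p = 0.11) that was called without Krt5-Cre R270H replicate 1, its lowest array (0.58, adjusted p = 0.030).

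Hmox1 encodes the inducible haem oxygenase, which splits haem into biliverdin, iron and carbon monoxide. It spread over 4.40 log2 units in BBN bladders, with a lowest level of 0.65, a median of 2.79 and a highest level of 5.06, against 1.75, 1.96 and 1.62 in normal. Its difference was 0.92 (95% interval -0.46 to 2.30, limma adjusted p = 0.26). The top value was in Upk2-Cre R172H replicate 2, whose group companions were at 2.05 and 1.29.

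Srxn1, sulfiredoxin, which repairs overoxidised peroxiredoxins, had a lowest level of 2.18, a median of 2.80 and a highest level of 4.21 in BBN bladders, against 2.52, 2.86 and 2.24 in normal. The ranges overlapped, with a difference of 0.38 (95% interval -0.21 to 0.98, limma adjusted p = 0.28). Akr1b8, an aldo-keto reductase that acts on reactive aldehydes, was at 5.09, 6.48 and 5.89 in Krt5-Cre R270H, 5.89, 5.45, 4.98 and 5.36 in Krt5-Cre R172H, 7.15 and 6.59 in Upk2-Cre R270H, 6.11, 5.97 and 5.03 in Upk2-Cre R172H, 6.46, 4.0 and 5.23 in Trp53 het, 6.78 and 6.89 in Krt5-Cre and 4.41 and 6.17 in Upk2-Cre, against 6.62, 6.58 and 6.21 in normal. It was below all normal arrays in 13 of 19 BBN arrays and above them in 3, both Krt5-Cre arrays and Upk2-Cre R270H replicate 1. The difference was -0.59 (95% interval -1.48 to 0.30, limma adjusted p = 0.27), and -0.76 on the G2600D arrays alone (adjusted p = 0.0498).

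The levels of cell type markers also differed between BBN and normal bladders. All 5 smooth muscle markers rose in BBN bladders, with a summed level (mean log2, each gene centred over all arrays) of -2.15 to 2.81, against -2.92 to -1.50 in normal. Of 7 luminal urothelium markers 6 fell (-2.99 to 0.91 in BBN, against 3.60 to 4.01 in normal), with Upk3a well above background on 14 of 19 BBN arrays, against all 3 normal arrays. Of 5 basal urothelium markers 4 rose (-0.61 to 1.24, against -2.51 to -1.98 in normal). Of 6 squamous markers 5 rose and 1 fell (-2.58 to 2.88, against -4.25 to -3.96 in normal). Of 6 neutrophil markers 4 rose (-0.81 to 2.65, against -5.36 to -4.66 in normal). Of 6 fibroblast markers 5 fell (-2.27 to 1.71, against 1.96 to 2.45 in normal). Of 10 macrophage markers, a cell type that holds much Hmox1, 3 rose and 1 fell (-1.13 to 2.26, against -0.63 to 0.14 in normal). Of 4 pan-epithelial markers 1 rose (-0.98 to 0.44, against -0.12 to 0.06 in normal). Of 4 endothelial markers 1 fell (-2.05 to 2.70, against 0.49 to 0.59 in normal). Sprr3, Ltf, Cxcr2, Ngp, Marco and Vsig4 were not well above background on any normal array. Fewer cells of a type and less RNA per cell cannot be told apart in whole tissue, and the part of these cell types in the members' differences was not tested.

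The genes around the pathway were read from lists, with all values as log2 differences of BBN minus normal and adjusted p-values from limma. Of all genes tested, 23.7% were called higher and 19% lower, with a median of 0.13, and counts in a list are to be read against these shares. Of 13 regulators and partners of NRF2, 3 rose and 4 fell, with a median of 0.17. Keap1, the NRF2 adaptor, was higher at 1.74 (adjusted p = 0.00042), with 1.72 to 3.67 on BBN arrays against 0.84 to 0.98 on normal ones. Bach2, which represses through the same response element, was lower at -2.92 (adjusted p = 5.0e-05). Nfe2l3, a relative of Nfe2l2, was lower at -1.85 (adjusted p = 0.00012), and Btrc, whose product also marks NRF2 for degradation, at -2.03 (adjusted p = 0.00017). In each of these 4 genes, picked for the smallest p of the list, the BBN and normal arrays did not overlap. That was so for 25.7% of all genes tested, but genes picked by p in the same comparison cannot be set against that share. The repressor Bach1 (0.22, adjusted p = 0.39) and the small MAF gene Mafg (0.18, adjusted p = 0.56) did not pass the test.

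Genes of glutathione synthesis and use were called higher in 6 of 11 tested genes and lower in 1, with a median of 0.81. Chac1, which breaks glutathione down, stood at 3.0 (adjusted p = 0.00038), the glutathione-conjugate exporter Abcc1 at 2.05 (adjusted p = 0.00044), glutathione reductase Gsr at 1.36 (adjusted p = 0.0019) and glutathione synthetase Gss at 1.35 (adjusted p = 0.0066). The ligase subunits Gclc and Gclm, one step before Gss, were not among the called genes. Of 13 thioredoxin and peroxiredoxin genes, 2 rose and 3 fell, with a median of 0.02. Thioredoxin, Txn1, rose by 1.45 (adjusted p = 0.0065), while the mitochondrial reductase Txnrd2 (-1.42, adjusted p = 0.00013), the mitochondrial peroxiredoxin Prdx3 (-1.02, adjusted p = 0.00024) and the thioredoxin inhibitor Txnip (-1.67, adjusted p = 0.00098) were lower.

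Of 4 superoxide dismutase and catalase genes 2 fell, with a median of -0.98: Sod1 at -1.35 (adjusted p = 7.4e-05) and Sod2 at -0.61 (adjusted p = 0.033). Sod3 (-1.55, adjusted p = 0.053) and catalase, Cat (-0.38, adjusted p = 0.45), did not pass. Of 6 genes of NADPH supply, the cofactor of both reductase systems, 1 rose and 2 fell, with a median of 0.24. Malic enzyme Me1 stood at -2.06 (adjusted p = 2.0e-05), Idh1 at -1.61 (adjusted p = 0.038) and Pgd at 0.60 (adjusted p = 0.039), and Taldo1 did not pass (0.27, adjusted p = 0.36). Of 7 haem and iron genes, the iron exporter Slc40a1 fell (-1.13, adjusted p = 0.039), with a median of -0.18. Hmox2, the constitutive haem oxygenase, did not pass (0.48, adjusted p = 0.054), nor did Fech (-0.41, adjusted p = 0.17) or Blvrb (-0.43, adjusted p = 0.21).

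Of 18 tested further detoxification genes that NRF2 is known to induce, 12 fell and 0 rose, with a median of -1.28. Gstm1, a glutathione transferase, stood at -4.82 (adjusted p = 3.7e-05), with 0.87 to 5.27 on BBN arrays against 8.11 to 8.4 on normal ones. The aldehyde oxidase Aox1 (-3.65, adjusted p = 3.7e-06), the microsomal transferase Mgst1 (-3.41, adjusted p = 0.00013) and Ugdh, which makes the sugar donor of glucuronidation (-2.59, adjusted p = 2.1e-06), were also lower. In all of them, Gstm1 included, BBN and normal arrays did not overlap, but they too were picked for the smallest p of their list. Slc7a11 is also induced by ATF4, the factor of the amino acid response, so genes of that response were read beside it. Of 9 genes 4 rose and 0 fell, with a median of 1.35: the serine synthesis enzymes Phgdh (3.62, adjusted p = 3.8e-06) and Psat1 (2.79, adjusted p = 5.7e-05), the amino acid carrier Slc7a5 (2.24, adjusted p = 0.00019) and Shmt2 (1.35, adjusted p = 0.0029). Atf4 itself, Atf3, Ddit3, Asns and Trib3 did not pass the test. A part of ATF4 in the Slc7a11 difference was not tested.

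**Figure D3:**
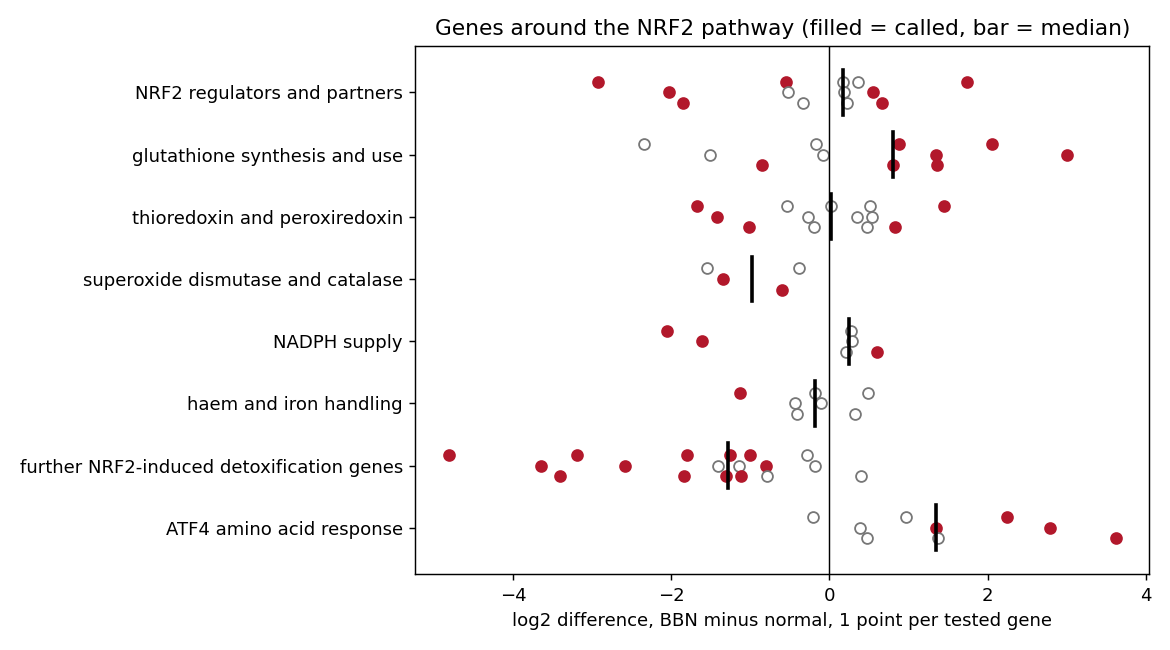
Log2 difference, BBN minus normal (horizontal axis), of every tested gene in 8 lists around the NRF2 pathway (vertical axis), filled where the adjusted p was at or under 0.05, with a bar at the list's median. Most further NRF2-induced detoxification genes lie below 0 (median -1.28), while the ATF4 list lies mainly above it (median 1.35).

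The BBN groups were then compared with each other, which asks whether the mutations, their alleles or the driver moved the pathway. No member passed limma's adjusted test in any of these comparisons, and few genes of the whole array did. Counts of members at an unadjusted p under 0.05 are given with the share of all genes tested that met it. With both Krt5-Cre mutant groups set against Krt5-Cre, 0 of 10 members were called, where 0.0115% of all genes were, and 2 members had an unadjusted p under 0.05 (4.8% of all genes). Nqo1 had a log2 difference of -2.51 (95% interval -4.11 to -0.90, unadjusted p = 0.0043, limma adjusted p = 0.86). All 7 mutant arrays were at 1.95 or below, against 3.16 and 2.51 in Krt5-Cre. The difference had the same sign on the G2505C (-1.81) and the G2600D arrays (-3.58), but each of these values rests on 1 Krt5-Cre array. Akr1b8 had a difference of -1.22 (unadjusted p = 0.0385, limma adjusted p = 0.9997), and its 7 mutant arrays were also all below both Krt5-Cre arrays. In the same comparison 5 of 5 smooth muscle markers (median -1.66, 3 at an unadjusted p under 0.05), 6 of 6 squamous markers (median -1.84) and 7 of 7 luminal markers (median -1.23) were below 0, 0 of them called, and their part in these values was not tested.

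With both Upk2-Cre mutant groups set against Upk2-Cre, 0 of 10 members were called by limma, where 0.00575% of all genes were, and 0 had an unadjusted p under 0.05 (6.29% of all genes). The values lay between -0.87 for Gpx2 and 0.99 for Akr1b8. Of the markers, 4 of 4 endothelial (median 2.15), 6 of 6 fibroblast (median 1.81) and 10 of 10 macrophage markers (median 0.56) were above 0, with 0 called. The difference between the mutant effects of the Krt5 and the Upk2 driver, tested as an interaction, was called by limma for 0 of 10 members (0% of all genes). Akr1b8 stood at -2.21 (95% interval -3.86 to -0.55, unadjusted p = 0.012, limma adjusted p = 0.998), Nqo1 at -2.44 (unadjusted p = 0.041) and Txnrd1 at -0.88 (unadjusted p = 0.048), both with the same adjusted p, and these 3 were the members with an unadjusted p under 0.05 (3.32% of all genes). Each driver contributed 2 arrays without a mutation, which limits this comparison: without Upk2-Cre replicate 1 Akr1b8 stood at -1.33 and Nqo1 at -1.76, and without Upk2-Cre replicate 2 at -3.09 and -3.12.

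The mutants of the Krt5 driver were set against those of the Upk2 driver, and limma called 0 of 10 members (0.00575% of all genes), with 3 at an unadjusted p under 0.05 (5.3% of all genes). Slc7a11 lay between -2.98 and -0.18 on the 7 arrays of Krt5-Cre mutants, against -0.61 to 1.72 on the 5 arrays of Upk2-Cre mutants. The ranges overlapped only through Krt5-Cre R270H replicate 3 and Krt5-Cre R172H replicate 4, and the difference was -2.06 (95% interval -3.37 to -0.76, unadjusted p = 0.0040, limma adjusted p = 0.89), with -2.80 on the G2505C and -1.01 on the G2600D arrays. Slc7a11 was near the lowest signal well above background on Krt5-Cre R270H replicate 1 and Krt5-Cre R172H replicates 1 and 2. These are G2505C arrays, so dim signal limits the G2505C value. Txnrd1 (-0.62, unadjusted p = 0.0093) and Gclc (-0.78, unadjusted p = 0.034) had the same limma adjusted p of 0.89. Without Upk2-Cre R270H replicate 1 they stood at -0.35 and -0.36. Endothelial (4 of 4, median -0.99) and fibroblast markers (6 of 6, median -0.42) were also below 0, with 0 called.

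The R270H and R172H alleles change different residues of the p53 DNA-binding domain. Set against R172H bladders, R270H bladders had 0 of 10 members called by limma (0% of all genes) and 2, Txnrd1 and Gclc (0.74), at an unadjusted p under 0.05 (9.81% of all genes), and all 10 differences were above 0, with a median of 0.55 against 0.03 over all genes tested. Txnrd1 was at 2.96, 2.87 and 2.91 in Krt5-Cre R270H and 4.48 and 3.39 in Upk2-Cre R270H, against 2.83, 2.34, 2.32 and 2.62 in Krt5-Cre R172H and 3.16, 2.43 and 2.65 in Upk2-Cre R172H. Only Upk2-Cre R172H replicate 1 reached into the R270H range, and the difference was 0.79 (95% interval 0.35 to 1.23, unadjusted p = 0.0016, limma adjusted p = 0.23). The second Txnrd1 probe gave 1.23 (limma adjusted p = 0.19). Without Upk2-Cre R270H replicate 1 the median of the 10 genes was 0.23, with 9 above 0, and Txnrd1 stood at 0.52. All R270H arrays were read on the G2505C scanner, which holds 2 R172H arrays, both Krt5-Cre, so allele and scanner cannot be told apart fully. With the scanner as a block 8 of 10 were above 0, with the slide as a block 7, and on the G2505C arrays alone 9. The 10 genes were read on the same arrays, so their signs are not independent. Every Krt5-Cre R172H array and Upk2-Cre R172H replicates 1 and 2 were against their sex label, and no R270H array was. Among the markers, 5 of 5 smooth muscle (median 2.31, 5 at an unadjusted p under 0.05), 6 of 6 fibroblast (median 1.08) and 4 of 4 endothelial markers (median 1.06) were above 0, with 0 called, and their part in the members' differences was not tested.

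Trp53 het bladders, with the Trp53R270H/+ genotype but no Cre or tamoxifen, were set against the Krt5-Cre and Upk2-Cre groups. By limma 0 of 10 members were called (0% of all genes), 1 had an unadjusted p under 0.05 (4.83% of all genes), and all 10 differences were below 0, with a median of -0.53 against 0.03 over all genes. Nqo1 was at 0.37, -1.07 and -1.01 in Trp53 het, against 3.16 and 2.51 in Krt5-Cre and 0.33 and 1.69 in Upk2-Cre. The difference was -2.49 (95% interval -4.01 to -0.96, unadjusted p = 0.0032, limma adjusted p = 0.68), and the ranges overlapped only at Trp53 het replicate 1 and Upk2-Cre replicate 1. On the G2505C arrays alone all 10 members were below 0 (median -0.92), and on the G2600D arrays, which hold 1 Trp53 het array, 6 of 10 (median -0.08). Without Krt5-Cre replicate 2, and likewise without Trp53 het replicate 1, 9 of 10 were below 0. In this comparison 5 of 5 smooth muscle (median -1.45) and 6 of 6 squamous markers (median -1.95, 2 at an unadjusted p under 0.05) were below 0 and 10 of 10 macrophage markers (median 0.55) above it, with 0 called, and their part in the members' differences was not tested. A limma F test over all 7 BBN groups called 0 of 10 members (0% of all genes) and gave 2 an unadjusted p under 0.05 (6.29% of all genes), Txnrd1 (0.0080, limma adjusted p = 0.65) and Nqo1 (0.017, limma adjusted p = 0.73). These comparisons share control arrays and are not independent of each other. The members were also read on the same arrays and correlate with each other, so counts of signs are not independent observations.

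**Figure D4:**
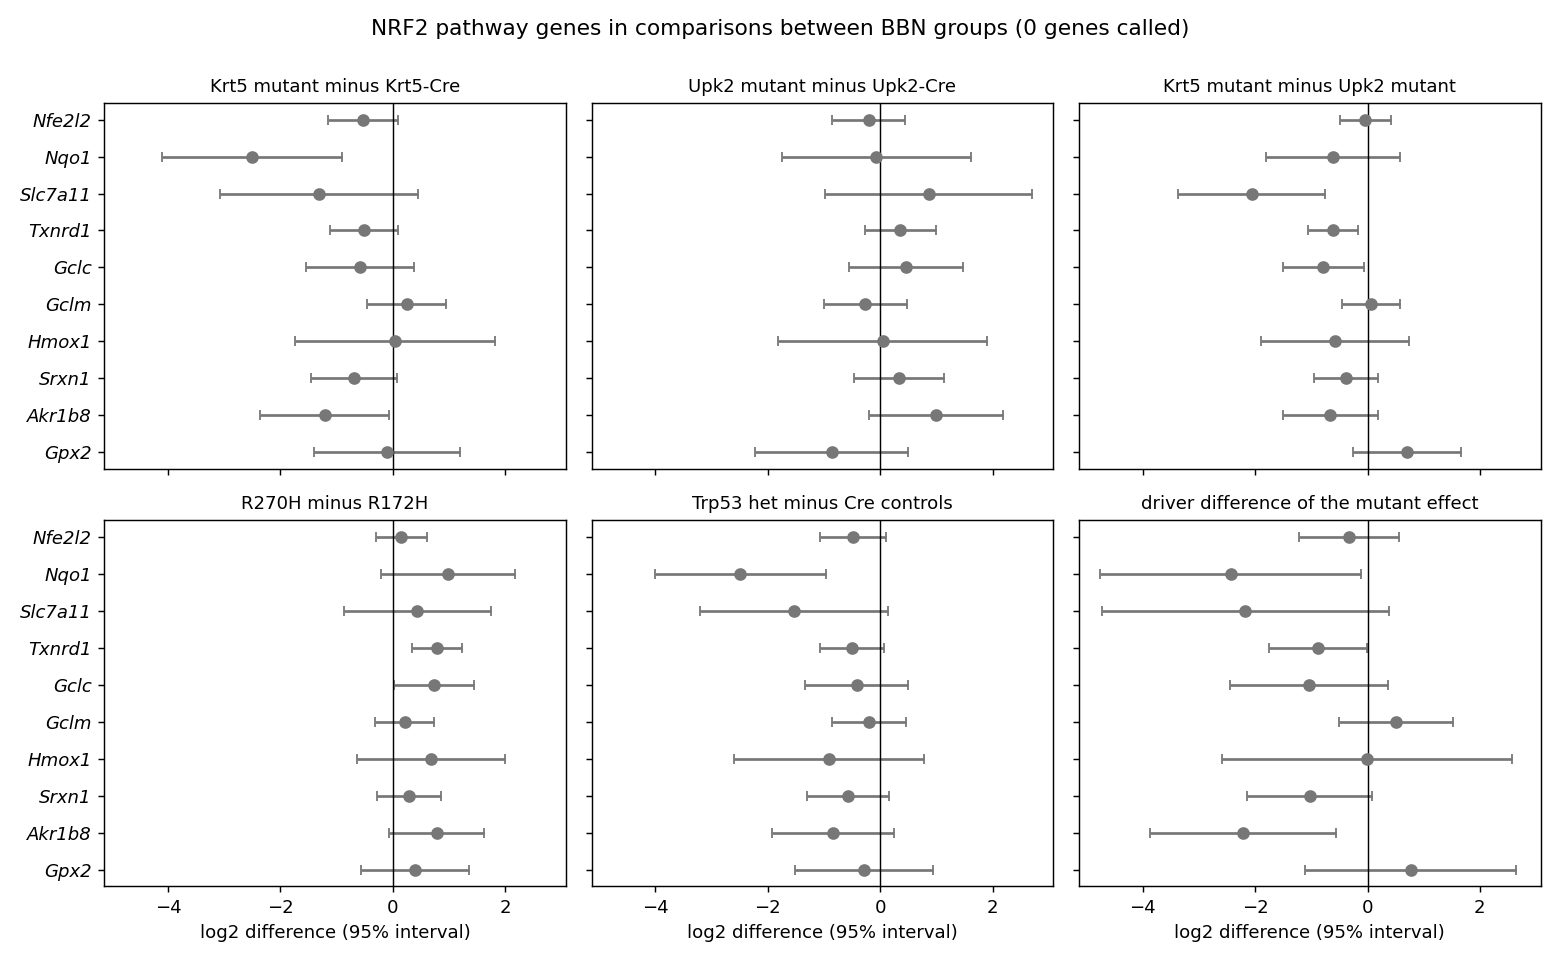
Log2 difference (horizontal axis, mean and 95% confidence interval) of the 10 genes in 6 comparisons between BBN groups, 1 panel each, first-named group minus second. Every difference of R270H minus R172H lies above 0 and every difference of Trp53 het minus the Cre controls below it, while 0 genes were called. The 10 genes were read on the same arrays, so their signs are not independent.

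Correlations between the members were taken over the 19 BBN arrays. Of 45 pairs, 41 had a Pearson correlation above 0, with a median of 0.38, and 14 pairs, all positive, passed Benjamini-Hochberg adjustment over the 45 (permutation tests, 100000 resamples). With group means removed the median was 0.35, with 39 pairs above 0. The permutations shuffled arrays across groups and scanners. Pairs of other genes were not counted, so whether these counts are particular to the members was not tested. Nqo1 and Akr1b8 had r = 0.79 and Spearman's rho = 0.83 (adjusted permutation p = 0.0036 for each), with r = 0.89 on the G2505C arrays, 0.62 on the G2600D arrays, 0.73 with group means removed and 0.74 without the 2 arrays farthest from the median of Nqo1. Srxn1 and Akr1b8 had r = 0.76 and rho = 0.76 (adjusted permutation p = 0.0036 and 0.0042), with 0.74 and 0.92 on the 2 scanners and 0.68 without the 2 farthest arrays.

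Txnrd1 and Srxn1 had r = 0.78 and rho = 0.58 (adjusted permutation p = 0.0080 and 0.047). Without the 2 arrays farthest from the median of Txnrd1 their r was 0.40, that of Txnrd1 with Gclc 0.40 in place of 0.70, and that of Gclc with Srxn1 0.42 in place of 0.71 without the 2 farthest in Gclc. These 3 relations therefore rested in large part on the arrays left out. Upk2-Cre R270H replicate 1 was the highest of the 19 BBN arrays in 5 members (Slc7a11, Txnrd1, Gclc, Srxn1 and Akr1b8) and among the top 5 in 8. Trp53 het replicate 2 was the lowest in Slc7a11, Hmox1, Srxn1 and Akr1b8 and among the bottom 5 in 7 members, yet it was second highest in Gpx2. Krt5-Cre R270H replicate 1 was also among the bottom 5 in 7 members.

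Nfe2l2 itself passed the adjustment by both measures with 1 member, Srxn1 (r = 0.61, rho = 0.66, adjusted permutation p = 0.024 and 0.025), and by rho alone with Txnrd1 (r = 0.47, rho = 0.63, adjusted permutation p = 0.11 and 0.031). Gpx2 passed with none; its largest value was r = -0.45 with Slc7a11 (rho = -0.48, adjusted permutation p = 0.12 and 0.11). The level of Gpx2 also moved with the share of spots well above background on an array (r = -0.67, rho = -0.63, adjusted permutation p = 0.022 and 0.048 over 10 genes; r = -0.44 and -0.45 within the scanners, and -0.55 without the 2 farthest arrays). Of 100 correlations between the members and the summed marker levels of 10 cell types, 0 passed the adjustment in permutation tests. The largest was Hmox1 with the endothelial markers (r = 0.63, rho = 0.56, adjusted permutation p = 0.30 and 0.25).

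**Figure D5:**
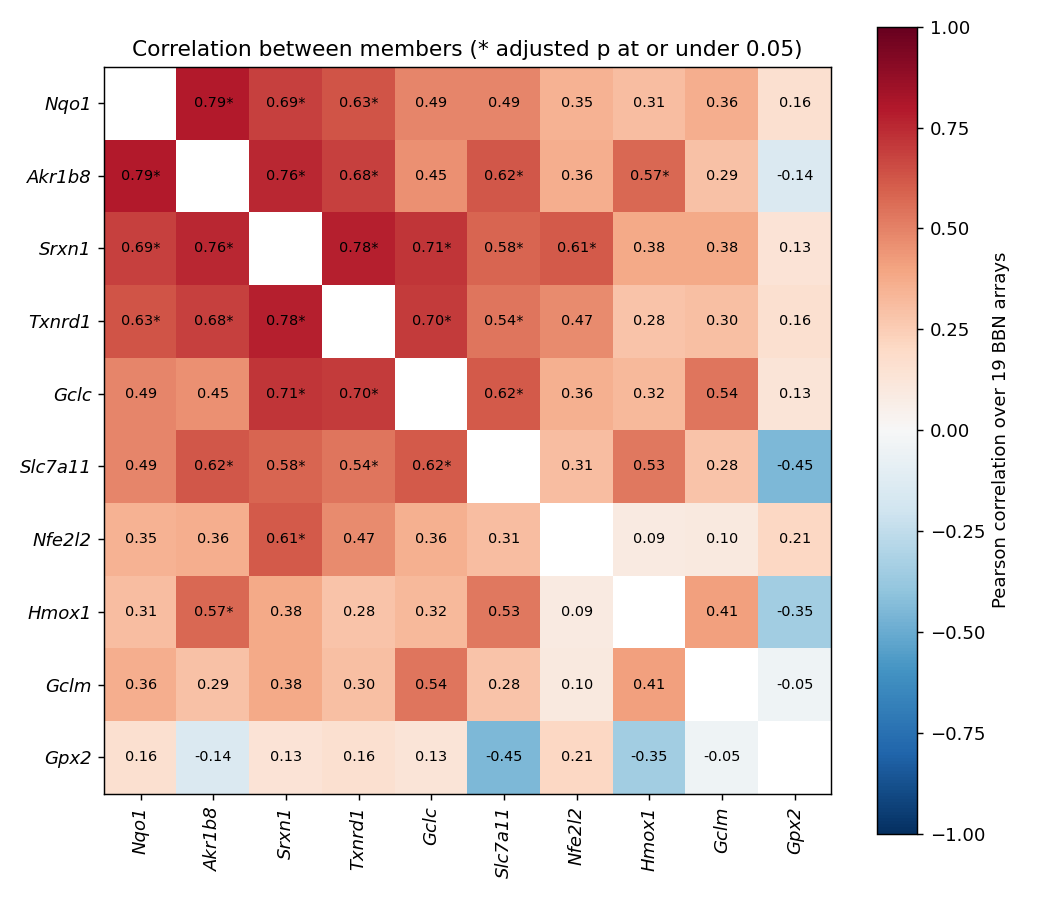
Pearson correlation between the levels of each pair of members over the 19 BBN arrays, coloured from -1 to 1, with a star where the adjusted permutation p was at or under 0.05. Nqo1, Akr1b8, Srxn1, Txnrd1, Gclc and Slc7a11 form a block of mostly starred positive pairs, and the Gpx2 row has no star.

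Over the same 19 arrays, the gene most like each member was named among all tested genes, as a description that shares arrays and depth. Nqo1 was most like Aldh3a1 (r = 0.89), Ppp2r2c (0.82) and Gsta3 (0.79), and Srxn1 was most like Esd (0.82), Slc1a1 (0.80) and Gsta2 (0.78). Akr1b8 was most like Hdc (0.84), Smim14 (0.82) and Vasn (0.81). Aldh3a1 is an aldehyde dehydrogenase, and Gsta2 and Gsta3 are glutathione transferases. Slc7a11 was most like Clasp1 (0.87), Plxna2 (0.86) and Pacc1 (0.85), and Nfe2l2 was most like Dynll1 (0.87), Gid8 (0.87) and Higd1a (0.86). Hmox1 was most like Sema7a (0.82), Slc11a1 (0.78) and Vstm5 (0.77). Gpx2 was most like Tgs1, Acin1 and Rabl6 (0.82 each). Txnrd1 was most like Kcnj4 (0.80), Eid3 (0.77) and Shisal2b (0.76). The values were lower for the ligase subunits: Gclc was most like Cdk2ap2 (0.76), Mchr1 (0.75) and Pef1 (0.74), and Gclm was most like Fzd8 (0.73), Atp6ap1 (0.69) and Mchr1 (0.67).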

How the data were processed

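The 22 arrays (3 normal, 19 BBN in 7 groups) were read from scanner files whose spot intensities had been made with Agilent Feature Extraction 11.0.1.1, with background subtraction and spatial detrending within each array, per the file headers; version 9.1 and limma are named per the submitters' processing notes. A deposited table of log2 values, made by the authors and reaching 18.8 in every column, served as an alternative. Samples were grouped by their titles. The log2 processed signal minus each array's 75th percentile was used. Of 56605 non-control probes, 32994 had 1 gene symbol and 23611 none, by RefSeq accession (GRCm38.p6). The brightest probe stood for each of 22911 genes; 24 with a value flagged as an outlier were left out, and 17404 genes well above background on at least 2 arrays were tested.

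The test was limma 3.58.1 (R 4.3.3) with 8 group means over 22 arrays, 7 contrasts and an F test, Benjamini-Hochberg adjustment within each comparison and a threshold of 0.05. It was tested on simulated data. The number of arrays, 2 to 4 a group, limits the precision. Replicate numbers did not pair samples. The members and the gene lists were chosen with earlier results of these data known. All 10 members are named, with up to 4 genes of smallest p per surrounding list (Keap1, Bach1 and Mafg always). The 3 non-member genes most like each member are also named. Ggt1, Gsta1 and Abcc2 were not tested. The levels of 1 of the 10 marker lists are not reported here. Background correction, scaling, filters, probe choice, scanner, slide, sex label, replicate block and each array left out were varied.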

Additional observations from a re-analysis of the deposited data

Results flagged for a closer look

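Gclm in Krt5-Cre R172H had 1 array far from the others: replicate 1 stood at 3.27, while the other 3 arrays of the group lay between 3.49 and 3.52. The gap, in a group of 4, passed Dixon's test at the 95% level. It was 1 of 11 gene and group combinations tested, of which chance alone flags about 1 in 20.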

How the results depend on the processing

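In BBN minus normal, the 2 members called higher became 1 with the slide as a block, with the sex label as a covariate (Slc7a11 at 1.58, adjusted p = 0.12), and without the 8 BBN arrays against their sex label, an alternative chosen after seeing the data; leaving out each array in turn gave 1 to 3, with 3 without Krt5-Cre R270H replicate 1, where Gclm was called. The 2 members called lower became 4 on the G2600D arrays alone, also chosen after seeing the data, with Gclc and Akr1b8 added; fewer arrays entered. Slc7a11 was 2.77 (adjusted p = 0.0029) when scanner entered as a block. The sex label did not match Xist and Y-linked transcripts on 11 of 22 arrays. As a covariate it therefore cannot stand for sex by those transcripts. Gpx2 ran from 2.47 to 3.28 (highest adjusted p = 0.0017), Nfe2l2 from -1.61 to -1.07 (0.0089) and Nqo1 from -3.10 to -2.09 (0.039) over all alternatives, and each kept its call. Quantile scaling moved the median of all genes to -0.01, against 0.13; relative to it Gpx2 stood at 2.92, against 2.97 before. Of 2570 single-gene values under alternatives, 2560 kept their side of the threshold, 6 lost it, 4 gained it and 0 called values changed sign, while 67 uncalled ones did. With the replicate block, the count of members called was 4 in BBN minus normal and 0 elsewhere; samples of the same number had a mean correlation of 0.04. The median member correlation of 0.38 lay between 0.345 and 0.477 under its alternatives. Within G2505C there is no normal array, and within G2600D no R270H array, so those values could not be had. Dim signal limited Slc7a11, and the 2 arrays of some groups limited every comparison between BBN groups.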
